A study of Mus musculus with 2 samples.

Results

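The genes described here are 38 enzymes and regulators of antioxidant defence and glutathione metabolism, chosen by symbol from the 23343 genes of the deposited tables. All 38 were found, in 48 rows of the tables. They were measured by RNA sequencing of eosinophils, granulocytes of type 2 immunity, sorted as CCR3+ and SiglecF+ cells from pooled bone marrow of naïve C57BL6J mice that received no treatment. There were 2 independent sorts of this 1 group and 1 library for each, called sort 1 and sort 2. How many mice went into a pool is not stated in the labels, and the design holds no second condition. Each gene's level is therefore described with the spread between the sorts, and a test between them compares 2 libraries and no conditions.

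Cells that produce superoxide rely on enzymes that turn it first into hydrogen peroxide and then into water. Superoxide dismutases carry out the first step, and catalase, glutathione peroxidases and peroxiredoxins the second. Glutathione peroxidases draw electrons from the tripeptide glutathione, which glutathione reductase regenerates with NADPH, while peroxiredoxins draw on thioredoxin and its reductase. The transcription factor NRF2, held in check by KEAP1, drives many of these genes under oxidative or electrophilic stress. Eosinophils carry a strong phagocyte NADPH oxidase, which makes superoxide.

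The libraries held 10087743 reads in sort 1 and 9264150 in sort 2. Levels are given as deposited RPKM, reads per kilobase of transcript and per 1000000 reads, so that genes of different length can be set side by side. Xist, an RNA made from the inactive X chromosome, had 47487 reads in sort 1 and 5 in sort 2. The Y-linked genes Kdm5d, Eif2s3y, Uty and Ddx3y had 0 reads in sort 1 and 756, 583, 355 and 745 in sort 2. The pools thus came from different animals, female in sort 1 and male in sort 2, and in every comparison below sort and sex cannot be told apart. The ribosomal RNA precursor Rn45s took 914623 and 89209 reads. The median chi-square per gene between the libraries was 4.15, against 0.455 for sampling noise alone, so they were not 1 library deposited again. The 11 eosinophil markers were all detected, with summed levels of 4011 RPKM in sort 1 and 4957 in sort 2, led by the ribonuclease Ear1 and the major basic protein Prg2. The 14 neutrophil markers were also all detected, with sums of 4476 and 4239 RPKM, led by Retnlg and S100a9. How much of each gene's signal came from neutrophils was not tested. In such bulk samples, fewer cells of a type and less RNA per cell cannot be told apart.

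Among the members are 5 whose transcripts carry a UGA codon read as the amino acid selenocysteine, the reactive residue of these enzymes. The codon and its neighbours are shown because the 5 genes, which share this chemistry, differed widely in level. Each line gives the sense strand 5′ to 3′ from GENCODE M21 transcripts matched by RefSeq accession, with the selenocysteine codon in capitals. The coordinates are those of the codon on mm10, plus strand.
Gpx1 (chr9:108339451-108339453, exon 1 of 2): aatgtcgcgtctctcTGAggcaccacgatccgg
Gpx3 (chr11:54907256-54907258, exon 2 of 5): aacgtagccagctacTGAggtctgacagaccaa
Gpx4 (chr10:80054737-80054739, exon 3 of 7): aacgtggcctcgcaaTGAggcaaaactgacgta
Txnrd1 (chr10:82896037-82896039, last exon): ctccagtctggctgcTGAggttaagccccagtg
Txnrd2 (chr16:18477772-18477774, exon 17 of 18): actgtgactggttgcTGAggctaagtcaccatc
In the peroxidases the codon lies early in the coding sequence, and in the thioredoxin reductases just before its end. Gpx1 had a mean of 121 RPKM, Gpx4 of 3.97, Txnrd1 of 3.57, Txnrd2 of 0.577 and Gpx3 of 0.512.

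Of the 38 genes, 30 were detected, meaning that each sort reached 1 RPKM or more, beside 30.2% of all genes. A further 3 reached that level in 1 sort only, and 5 stayed below it in both. The median over the 38 was 3.11 RPKM in sort 1 and 2.83 in sort 2. Over all 23343 genes these medians were 0.108 and 0.0896, and over the 7048 detected genes 4.07 and 3.97. By the mean of the sorts, the median was 4.54 RPKM over detected members and 4.03 over detected genes. The typical detected member thus lay close to a typical detected gene. A few members lay far above it. Cat, Gpx1, Gsr, Txnip and Sod1 exceeded 40 RPKM in both sorts, beside 0.955% of all genes. These 5 held 72.7% of the summed RPKM of the set in sort 1 and 74.6% in sort 2. All members together took 0.453% of the reads of sort 1 (95% Wilson interval 0.449 to 0.457) and 0.516% of those of sort 2 (0.511 to 0.520).

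**Figure D1:**
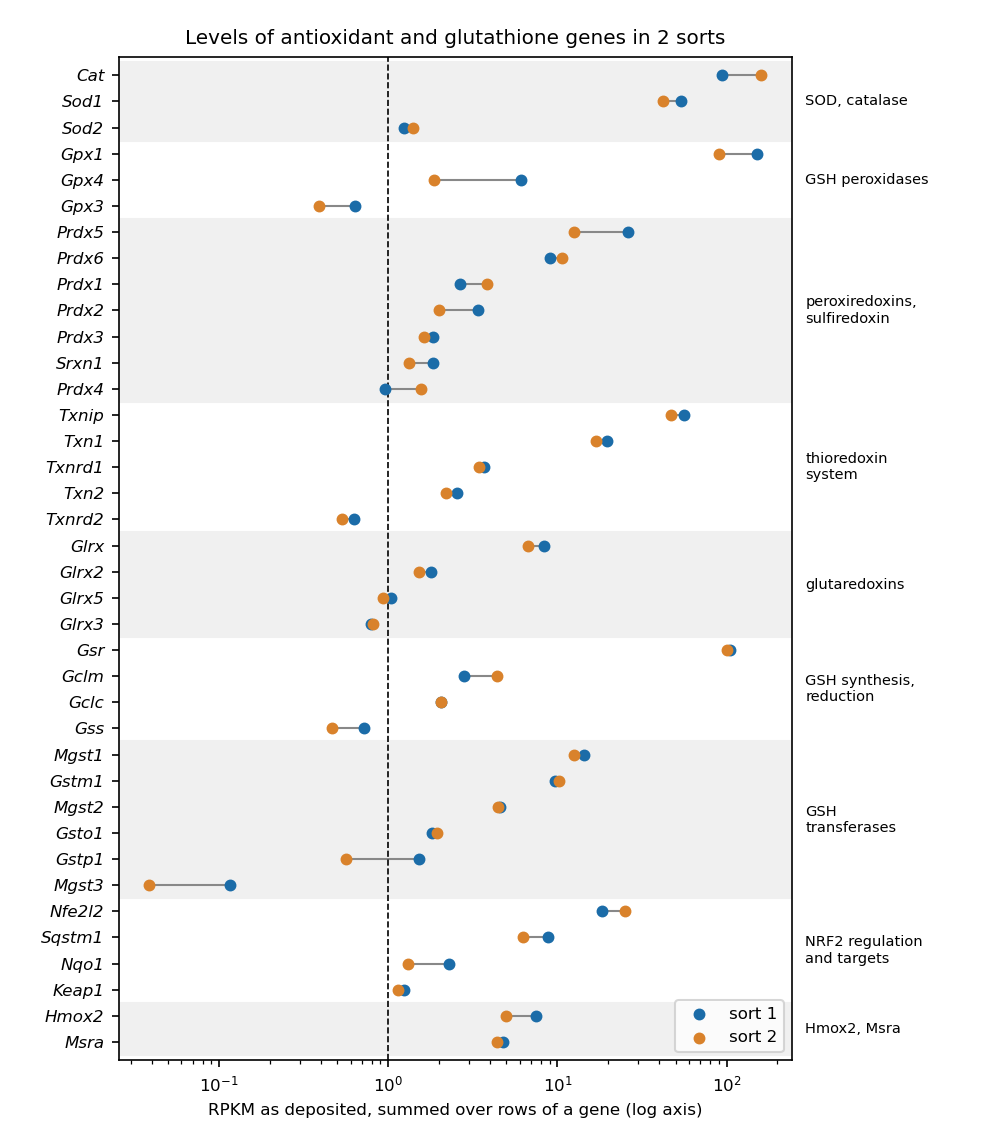
Deposited RPKM of each of the 38 genes on a log axis, with sort 1 in blue, sort 2 in orange and a grey line joining them, grouped by role; the dashed line marks 1 RPKM. Cat, Gpx1, Gsr, Txnip and Sod1 stand apart above 40 RPKM in both sorts, and Mgst3 lies lowest.

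Catalase was the most abundant of the 38 by its mean. Cat, which splits hydrogen peroxide into water and oxygen inside peroxisomes, lies at chr2:103453904-103485153 and had 94.2 RPKM in sort 1 and 161 in sort 2. Its mean of 127 ± 47.0 RPKM (SD, n = 2) ranked 53 among the 23343 genes. Sod1, the cytosolic copper and zinc superoxide dismutase at chr16:90220742-90226324, had 53.5 and 42.0 RPKM. Its level was 42.9 times that of Sod2, the manganese enzyme of mitochondria, in sort 1 and 29.9 times in sort 2. Sod2 had 1.25 and 1.40 RPKM, among the lowest of the detected members. Of the Sod1 transcript's stretches of 50 bases, 23.1% occur also in the processed pseudogene Gm8566, so part of its reads may have been assigned elsewhere or dropped. The sources used here do not say how the authors' counting treated such reads.

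Cytosolic glutathione peroxidase dominated its family. Gpx1, which reduces hydrogen peroxide with glutathione, lies at chr9:108339080-108340344 and had 151 RPKM in sort 1 and 90.6 in sort 2. Its mean was 121 ± 42.4 RPKM (SD, n = 2), rank 57 of all genes. Cat and Gpx1, which share hydrogen peroxide as substrate, exchanged places: the level of Cat was 0.626 times that of Gpx1 in sort 1 and 1.77 times in sort 2. Gpx4, which reduces lipid hydroperoxides in membranes, had 6.07 and 1.86 RPKM. Gpx3, the secreted plasma form, had 39 and 24 reads and stayed below 1 RPKM in both sorts. Gpx1 thus exceeded Gpx4 24.8-fold in sort 1 and 48.7-fold in sort 2 on the RPKM scale. The Gpx4 transcripts share 53.5% of their 50-base stretches with other transcripts, all of them with the transcribed pseudogene Gpx4-ps2, while the Gpx1 transcript shared none. The level of Gpx4, and with it both folds and its place among the selenocysteine genes above, is therefore uncertain.

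Peroxiredoxins were lower than catalase and Gpx1. Prdx5, a peroxiredoxin of mitochondria, peroxisomes and cytosol, led with 26.3 RPKM in sort 1 and 12.5 in sort 2. Prdx6, which uses glutathione in place of thioredoxin and also has phospholipase activity, followed with 9.10 and 10.6. Prdx1, the abundant cytosolic enzyme of many tissues, had 2.64 and 3.82 RPKM, and its red-cell relative Prdx2 had 3.41 and 1.99. Prdx3 of mitochondria had 1.85 and 1.62 RPKM, and Prdx4 of the endoplasmic reticulum 0.962 and 1.57, so Prdx4 passed the minimum in sort 2 only. Srxn1, the sulfiredoxin that repairs overoxidised peroxiredoxins, had 1.84 and 1.32 RPKM. The order of the lower 5 differed between the sorts, and only Prdx5 and Prdx6 lay above the rest in both. Prdx1 shares 10.9% of its 50-base stretches with processed pseudogenes. Prdx2 shares 9.65% with the processed pseudogene Tdpx-ps1, and 14.3% on the opposite strand with Junb and Rnaseh2a. Of the stretches of the GENCODE Prdx5 transcript, 29.7% occur on the opposite strand in Trmt112 transcripts. The deposited Prdx5 row, at chr19:6906819-6909645, was not among those overlapping another annotated gene, so that shared part may lie outside what was counted.

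In the thioredoxin system the inhibitor was higher than the enzyme it binds. Txnip, the thioredoxin-interacting protein, which also restrains glucose uptake, lies at chr3:96557957-96561857 and had 56.2 RPKM in sort 1 and 46.9 in sort 2. Txn1, cytosolic thioredoxin, had 19.6 and 17.0. The level of Txnip was 2.87 times that of Txn1 in sort 1 and 2.76 times in sort 2. Txn2, the mitochondrial thioredoxin, had 2.54 and 2.21 RPKM. The reductases that recharge them were low, with 3.68 and 3.45 RPKM for cytosolic Txnrd1 and 0.625 and 0.530 for mitochondrial Txnrd2. In each compartment the thioredoxin thus exceeded its reductase in both sorts. An annotated antisense RNA, Gm15441, covers 18.1% of the 50-base stretches of Txnip on the opposite strand.

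Glutaredoxins, small enzymes that remove glutathione from protein thiols, were low apart from 1. Glrx, the cytosolic form, had 8.34 RPKM in sort 1 and 6.70 in sort 2. Glrx2, found in mitochondria, had 1.79 and 1.52 as the sum of its rows. The row with the most reads had a mean of 0.493 RPKM, so Glrx2 counts as detected only through the sum. Several of its rows had the same reads in each sort, so that sum may count the same signal again. Glrx5, which serves mitochondrial iron-sulfur cluster assembly, had 1.04 and 0.927 RPKM, and Glrx3, a cytosolic iron-sulfur protein, 0.789 and 0.811. The Glrx3 transcript shares 45.4% of its 50-base stretches with the processed pseudogene Gm12669.

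Glutathione reductase was far above the enzymes that build glutathione. Gsr, at chr8:33653238-33698162, had 105 RPKM in sort 1 and 99.9 in sort 2, or 102.5 ± 3.62 (SD, n = 2), rank 75 of all genes. Gclc, the catalytic subunit of glutamate-cysteine ligase and the rate-limiting step of synthesis, had 2.05 and 2.04 RPKM. Gclm, its modifier subunit, had 2.81 and 4.42, and Gss, glutathione synthetase, 0.718 and 0.464. The level of Gsr was 51.2 times that of Gclc in sort 1 and 49.0 times in sort 2. It was also 28.5 and 29.0 times that of Txnrd1, a reductase of the same protein family. These ratios hardly differed between the sorts, whereas Gclm against Gclc was 1.37 in sort 1 and 2.17 in sort 2.

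Glutathione transferases, which join glutathione to reactive compounds, held a middle position. Mgst1, a membrane enzyme with peroxidase activity, had 14.3 RPKM in sort 1 and 12.6 in sort 2. Gstm1, a cytosolic enzyme of the mu class, had 9.66 and 10.2, and Mgst2, which can also make leukotriene C4, had 4.57 and 4.43. Gsto1 of the omega class had 1.81 and 1.93 RPKM. Gstp1 of the pi class had 1.53 and 0.563, passing the minimum in sort 1 only. Mgst3 had 3 reads in sort 1 and 1 in sort 2, the lowest of the 38. Gstp1 shares 62.3% of its 50-base stretches with other transcripts, chiefly those of its near-identical neighbour Gstp2, which had 5 and 4 reads. Gstm1 shares 23.1%, with Gstm3 and with pseudogenes. The levels of both are therefore uncertain.

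The transcription factor lay far above its inhibitor. Nfe2l2, which encodes NRF2, lies at chr2:75675519-75704641 and had 18.4 RPKM in sort 1 and 25.1 in sort 2. Keap1, the adaptor that directs NRF2 to degradation, had 1.24 and 1.14 RPKM. Nfe2l2 thus exceeded Keap1 14.8-fold and 22.04-fold on the RPKM scale. An annotated antisense RNA, Gm16754, covers 10.9% of the 50-base stretches of Keap1 on the opposite strand, so the Keap1 level may hold reads of both. Sqstm1, the autophagy receptor p62 that can sequester KEAP1, had 8.80 and 6.27 RPKM. Nqo1, a quinone reductase widely used as a readout of NRF2, had 2.29 and 1.32 RPKM. Its level does not stand for all genes that NRF2 can drive, and the activity of NRF2 was not tested. Hmox2, the constitutive haem oxygenase, had 7.43 and 4.99 RPKM, and Msra, which repairs oxidised methionine, 4.76 and 4.39. Of the Hmox2 transcripts' 50-base stretches, 43.6% lie on the opposite strand in Cdip1 transcripts, and since the strand setting of the counting is not given, reads of the pair may not have been separated.

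The core of the antioxidant response element, the DNA site through which NRF2 acts, was sought as TGACNNNGC on both strands in RefSeq promoter windows of GRCm38.p6, which run from 250 bases before to 50 after each start. Windows were matched for 34 of the 38 genes, and Gclc, Gsr, Msra and Prdx6 had none. A match was present for 7 of the 34, or 20.6%, beside 14.0% of all 27025 genes with windows. Some genes had several windows, and counted by window the share was 7 of 47, or 14.9%, beside 12.4% of 32851. The 7 were Gclm, Mgst1, Nfe2l2, Prdx1, Sod1, Srxn1 and Txnrd1. The 6 that lie before the start are shown so that the element can be read beside the levels, each 5′ to 3′ along the transcribed strand with the match in capitals. That of Srxn1 lies after the start and is not shown. The Nfe2l2 match reads forward and the other 5 in reverse, as GCNNNGTCA.
Gclm (chr3:122245397-122245457, plus strand): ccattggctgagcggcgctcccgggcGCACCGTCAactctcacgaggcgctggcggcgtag
Mgst1 (chr6:138140445-138140505, plus strand): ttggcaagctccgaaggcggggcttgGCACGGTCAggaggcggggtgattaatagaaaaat
Nfe2l2 (chr2:75704869-75704913, minus strand): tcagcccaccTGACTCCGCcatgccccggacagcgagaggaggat
Prdx1 (chr4:116685440-116685500, plus strand): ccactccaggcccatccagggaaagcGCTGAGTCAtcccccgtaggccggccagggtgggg
Sod1 (chr16:90220680-90220740, plus strand): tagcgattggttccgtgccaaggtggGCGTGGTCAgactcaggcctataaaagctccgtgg
Txnrd1 (chr10:82859088-82859148, plus strand): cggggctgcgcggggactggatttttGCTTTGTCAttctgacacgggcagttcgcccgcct
The Prdx1 match also holds TGACTCA, the site of AP-1 factors, on the opposite strand. Of the 7 genes, Sod1 was above 40 RPKM in both sorts, Nfe2l2 and Mgst1 were above 10, and Gclm, Prdx1, Srxn1 and Txnrd1 were below 5. Neither Cat nor Gpx1 had a match in its window. A match is a description of letters and not a bound site.

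Reads of the sorts were then compared gene by gene by the binomial test, exact and two-sided, with TMM-scaled library sizes and Benjamini-Hochberg adjustment over 12347 genes with at least 10 reads. Calls required both an adjusted p below 0.05 and a 2-fold or larger difference. These p-values set 2 libraries against sampling noise. Of 37 members tested, 2 were called, beside 7.95% of all genes tested, and both were higher in sort 1, beside 4.90%; none was called higher in sort 2, beside 3.05%. Mgst3 had too few reads to be tested. At any fold, 18 members passed the adjusted p, beside 44.4% of all genes, with 6 higher in sort 2, beside 22.8%, and 12 higher in sort 1, beside 21.6%. Log2 ratios, taken as sort 2 over sort 1, had a median of -0.12 over the 37 and -0.00031 over all genes tested, and the median size of the ratio without its sign was 0.24 and 0.33. All genes tested include many that were not detected, so these sizes cannot tell whether members differed less than genes of like level. The edgeR exact test, which adds the dispersion estimated from the 2 libraries, called none of the 37 and 33 of all genes, or 0.267%. That dispersion was estimated with both libraries as 1 group. It therefore holds the difference under test, so few calls are built in. By that test 3 members had an unadjusted p under 0.05, and the smallest adjusted p was 0.173.

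**Figure D2:**
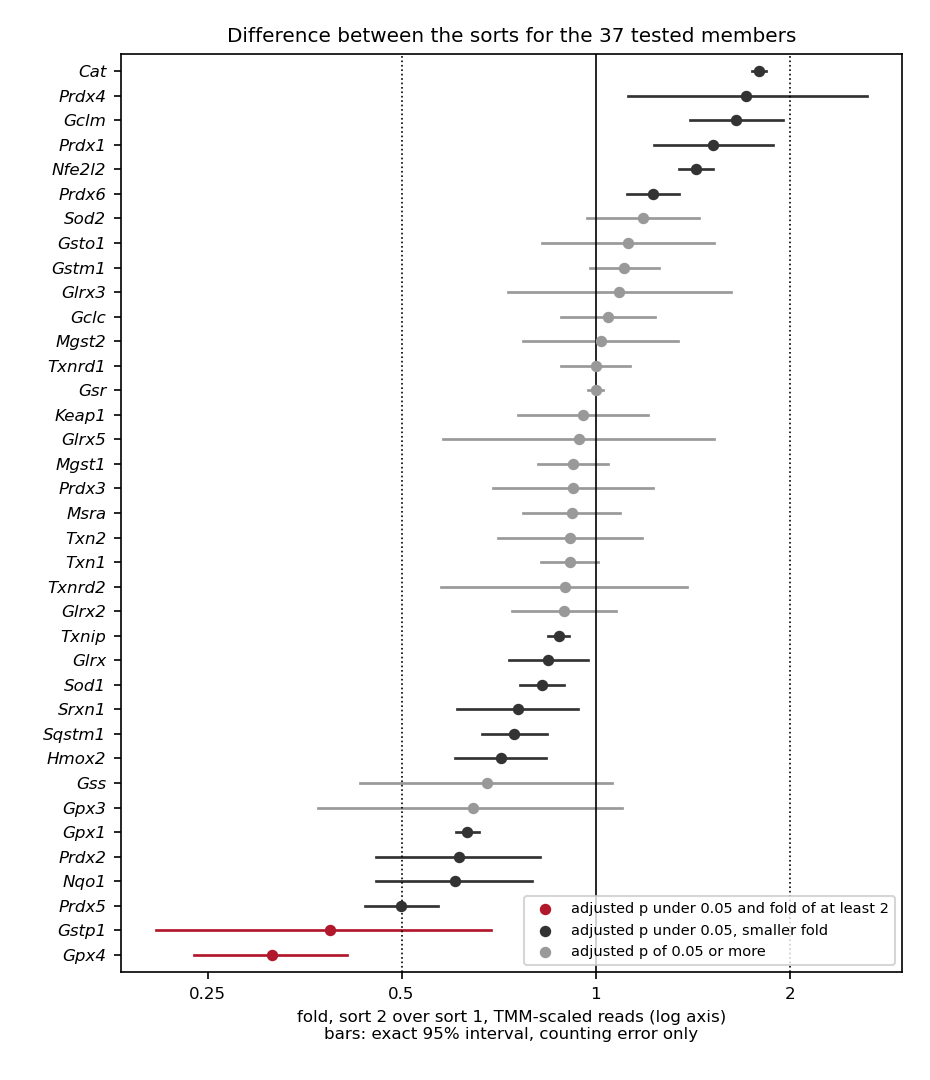
Fold of sort 2 over sort 1 for the 37 tested members on a log axis, from TMM-scaled reads, with exact 95% intervals that cover counting error only. Dotted lines mark a 2-fold difference; Gpx4 and Gstp1, in red, were the called members, Cat lies at the top with 1.79 and Gsr lies on the line of no difference.

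Gpx4 and Gstp1 were the called members. Gpx4 had 240 reads in sort 1 and 72 in sort 2, which is 3.18-fold higher in sort 1 (exact 95% interval 2.43 to 4.198, adjusted p = 2.39e-19 by the exact binomial test). Gstp1 had 46 and 17 reads, 2.58-fold higher in sort 1 (1.45 to 4.80, adjusted p = 0.00205 by the same exact test). Both are among the genes that share most sequence with near-identical copies. Prdx5, with 732 and 349 reads, had a scaled fold of 2.00 (1.76 to 2.28) and lay at the threshold itself, its log2 ratio of -0.9966 falling just short. With DESeq2 size factors in place of TMM its log2 ratio was -1.00289 and it was called. After the GC correction given below its log2 ratio was -0.659, further from the threshold.

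Abundant members differed by less but with narrow intervals. Cat had 9732 reads in sort 1 and 16642 in sort 2, 1.79-fold higher in sort 2 (exact 95% interval 1.75 to 1.84). Gpx1 had 6385 and 3853, 1.58-fold higher in sort 1 (1.52 to 1.65). Nfe2l2, with 1844 and 2519 reads, was 1.43-fold higher in sort 2 (1.35 to 1.52), and Gclm, with 236 and 372, 1.65-fold (1.40 to 1.95). Gsr had 11369 and 10844 reads and a scaled fold of 0.99985 (0.974 to 1.03), the closest pair of the set. Txnrd1, with 532 and 508 reads, had a fold of 1.001 (0.885 to 1.13). Differences in Nqo1, 1.66-fold higher in sort 1 (1.25 to 2.20), and in Prdx2, 1.63-fold higher in sort 1 (1.22 to 2.20), passed the adjusted p with values of 0.000971 and 0.00221 by the exact binomial test. Those in Prdx1, 1.52-fold higher in sort 2 (1.23 to 1.88), and Prdx4, 1.71-fold higher in sort 2 (1.12 to 2.63), did so with 0.000328 and 0.0236.

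Red cells are rich in catalase and Prdx2, so markers of these and other marrow cells are given beside the values. None of the 13 erythroid markers was detected at 1 RPKM in both sorts and none was at 0. Their summed level was 5.39 RPKM in sort 1 and 8.85 in sort 2. The median log2 ratio was 0.50, with 12 of 13 above 0. The highest were the joint entry of Hbb-b2 and Hbb-bt, with a mean of 1.25 RPKM, and Hba-a1, with 1.04. Hba-a1, Hba-a2, Slc4a1 and Rhag, 4 in all, were called higher in sort 2, beside 3.05% of all genes tested. These calls rest on few reads, 14 and 32 for Hba-a1, 37 and 125 for Slc4a1 and 5 and 21 for Rhag. Hba-a2 had the same reads as Hba-a1, and Hbb-bs the same as Hbb-b1, so the list may count the same signal again. Cat was higher in sort 2, with 94.2 and 161 RPKM, and Prdx2 higher in sort 1. Of the 13 monocyte and macrophage markers 8 were detected, with sums of 87.1 and 67.8 RPKM, and Ly6c2 and Csf1r highest. Their median log2 ratio was -0.27, with 11 of 13 below 0. The 4 called, all higher in sort 1, beside 4.90% of all genes tested, were Cd163, C1qa, C1qb and C1qc. Their log2 ratios were -2.09, -3.14, -1.09 and -1.35. C1qa had 16 reads in sort 1 and 0 in sort 2, so the size of its ratio depends on the prior count. GC contents were 48.1% for Cd163 and 59.5%, 57.4% and 57.5% for C1qa, C1qb and C1qc, a property taken up below. Of the basophil and mast cell markers 7 of 8 were detected, of the B and plasma cell markers 2 of 6, and of the T and NK cell markers 1 of 7. The eosinophil markers had a median log2 ratio of 0.32, with 10 of 11 above 0. The neutrophil markers had a median of -0.12 and were split, with 5 passing the adjusted p as higher in sort 2 and 7 as higher in sort 1. Ltf, Ngp, Lcn2 and Camp, proteins of later granules, had log2 ratios of -0.75, -0.68, -0.61 and -0.60. Ctsg, Elane and Mpo, of the earliest granules, had 0.49, 0.46 and 0.18. Other genes of these granules differed less, with 0.02 for Prtn3 of the earliest and -0.01 and -0.23 for Mmp8 and Mmp9 of the later. All these genes were picked after their values were seen. The part of these cells in the differences between the sorts was not tested.

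Ratios between the sorts also went with base composition. Across 8680 genes with at least 100 reads, which are not independent replicates, the Spearman correlation of the log2 ratio with transcript GC content was -0.54. Across the 32 members with that depth it was -0.42, again over genes of the same 2 libraries. Gpx4, Prdx5 and Gpx1, all lower in sort 2, had GC contents of 59.5%, 58.3% and 57.2%, against a median of 50.1% for the genes tested. Prdx1 and Gclm, both higher in sort 2, had 42.3% and 42.1%. Counts and RPKM implied shorter transcripts for Prdx1, Gclm and Prdx5 than the GENCODE ones used, of 2294, 5589 and 1262 bases. GC content of the counted sequence, and ratios corrected by it, may therefore differ for such genes. Keap1, at 59.1%, had a log2 ratio of only -0.06, and Nqo1, at 46.7%, one of -0.71, so members also departed from the trend. After the trend over all genes was subtracted, the log2 ratio was -1.27 in place of -1.64 for Gpx4, -1.02 in place of -1.27 for Gstp1 and 0.81 in place of 0.84 for Cat. For Gpx1 it was -0.36 in place of -0.66, and for Prdx5 -0.659 in place of -0.9966.

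**Figure D3:**
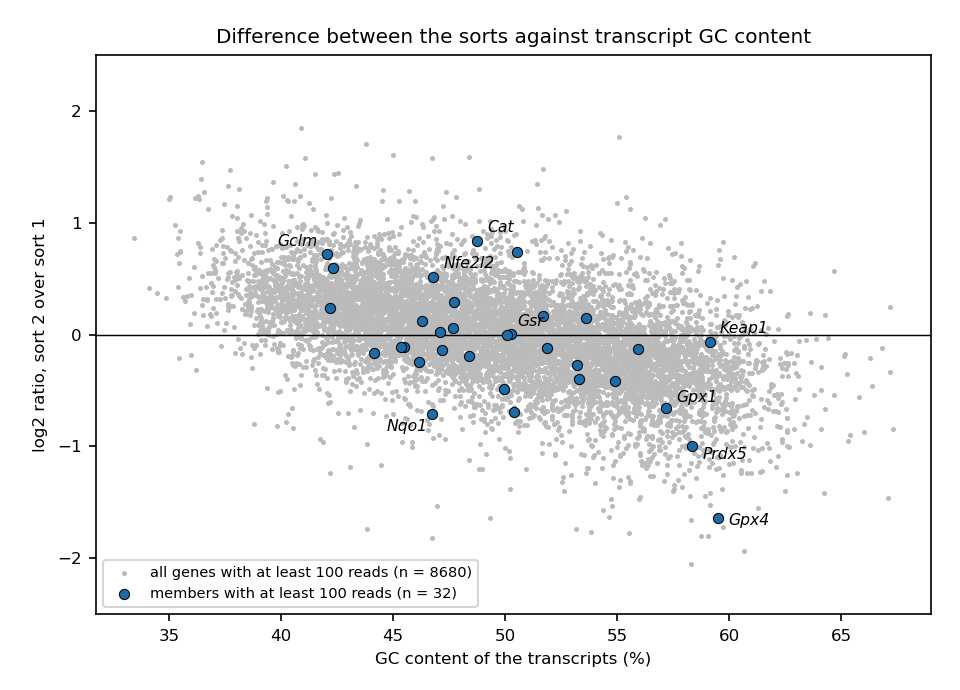
Log2 ratio of sort 2 over sort 1 against the GC content of the transcripts for 8680 genes in grey and the 32 members with at least 100 reads in blue; 8 genes lie outside the vertical axis. The grey cloud slopes down with a Spearman correlation of -0.54, and Gpx1, Prdx5 and Gpx4 lie at its high-GC end below 0, while Cat lies above the cloud's centre at 0.84.

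Several rows were deposited for 5 of the 38, each row standing for transcripts with the same start and end. For Glrx2 the rows took nearly the same shares in both sorts, with 29.8% of the reads for each of 3 rows and 10.7% for another. Those 3 rows had the same reads, 75 each in sort 1 and 64 each in sort 2. Their sum may count the same signal again, and the even split may come from the counting. For Txnrd1 the row starting at 82833951 on chromosome 10 took 73.7% of the reads in sort 1 and 100% in sort 2. The row starting at 82859206, downstream of the promoter match shown above, took 92 of 532 reads in sort 1 and 0 of 508 in sort 2, which allows a share of up to 0.591%. For Hmox2 the upstream row, starting at 4726361 on chromosome 16, took 277 of 374 reads in sort 1 and 0 of 254 in sort 2, which allows up to 1.18%. For Msra the row whose 5′ end is at 64441040 on chromosome 14 took 99.6% in sort 1 and 31.3% in sort 2, while its neighbour, whose start differs by only a few bases, took 0.356% and 68.7%. For Gpx4 the row starting at 80054037 on chromosome 10 took 182 of 240 reads in sort 1 and 36 of 72 in sort 2. Such rows overlap over most of their length, and their reads may have been divided by estimation, so the limits cover counting error only and use of a start was not measured directly. The gene sums of Txnrd1 and Msra differed little between the sorts, with folds of 1.001 and 0.918 for sort 2 over sort 1.

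**Figure D4:**
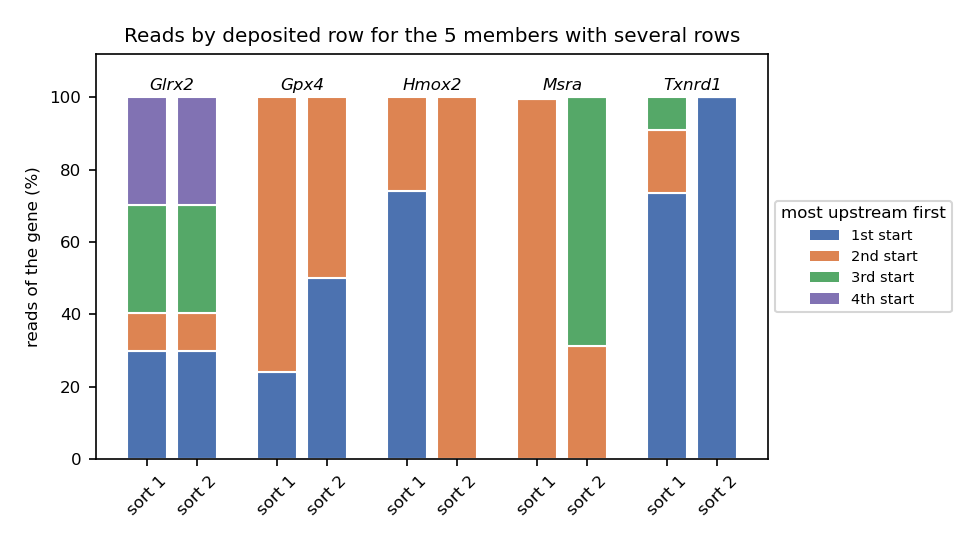
Share of each gene's reads in every deposited row, in percent, for the 5 members with several rows, with the most upstream start at the bottom of each bar. Glrx2 has the same split in both sorts, whereas Hmox2 and Txnrd1 have a single row with reads in sort 2 and the main row of Msra changes from 99.6% to 31.3%.

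Genes that work beside the 38 were taken from a list of 100 others. Of these, 51 were detected, beside 30.2% of all genes. Among the 76 tested, 3 were called with more reads in sort 2, beside 3.05% of all genes, and 5 with more in sort 1, beside 4.90%, shares near the background. In each of its groups the highest members were as follows. NADPH supply had 9 of 11 detected and the highest group median, 10.8 RPKM in sort 1 and 9.73 in sort 2. Pgd, of the oxidative pentose phosphate pathway, had 48.7 ± 11.1 RPKM and G6pdx, its first enzyme, 37.5 ± 2.70 (SD, n = 2). The lowest of the group were Pgls with 1.96 and 0.976, Idh2 with 1.57 and 1.78, and Me1, which had no reads; these 3 were named after their values were seen. Among other antioxidant proteins 14 of 26 were detected, led by the ferritin chains Fth1 with 92.4 and 83.0 RPKM and Ftl1 with 104 and 49.2. Of 18 genes of glutathione turnover and cystine supply 7 were detected, with Esd at 5.81 and 7.96 RPKM and Slc3a2, a chain of the cystine transporter, at 5.59 and 4.69.

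A group of 22 other glutathione transferases and enzymes of eicosanoid synthesis had 3 detected genes, of which Gstz1, with 1.58 and 1.14 RPKM, is a glutathione transferase by name. Alox5ap, a membrane protein of the microsomal transferase superfamily that feeds 5-lipoxygenase, had 167 and 152 RPKM, and Ptgs1, a cyclooxygenase that makes prostaglandins, had 3.38 and 2.67. Of 11 partners and relatives of NRF2 9 were detected, with Cul3, the ubiquitin ligase scaffold that KEAP1 uses, at 22.9 and 29.5 RPKM and Nfe2, a haematopoietic relative, at 20.6 and 19.9. Of 12 genes of selenoproteins and their synthesis 9 were detected, led by 2810407C02Rik, the deposited symbol of selenoprotein T, at 9.99 and 11.98 RPKM and Selk at 10.7 and 8.68. The called genes higher in sort 1 were Ftl1, Blvra, Gstt2, Ggt5 and Sepw1, and those higher in sort 2 were Chac2, Gstcd and Gstk1. Chosen after its values were seen, Msrb1, a selenoprotein that repairs the other form of oxidised methionine, had 66.6 and 53.7 RPKM, above Msra in both sorts. Hmox1, the inducible haem oxygenase, had 9.59 and 6.42 RPKM and Slc7a11, the other chain of the cystine transporter, 3.07 and 2.58, and these also were named after their values were seen.

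For scale, the 8 genes of the phagocyte NADPH oxidase list, which make the superoxide that the first of these enzymes removes, were all detected. Their medians were 62.2 RPKM in sort 1 and 57.4 in sort 2. Cat, Gpx1, Gsr, Txnip and Sod1 lay within the range of that list by its means, from Ncf4 with 15.6 and 13.8 RPKM in the sorts to Ncf1 with 185 and 188, and the other 33 members had medians of 2.54 and 1.99 RPKM.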

How the data were processed

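Poly(A) RNA of CCR3+ SiglecF+ cells from 2 sorts was sequenced from stranded dUTP libraries, per the labels' protocols. Reads were aligned with STAR 2.4.0c to mm10, per the submitters' processing notes. Which program counted the reads, with which strand setting, is not stated in the labels. Whole-number read counts and RPKM were deposited by the authors for 26099 rows of RefSeq transcripts. The ratio of count to RPKM implied a divisor of 40.4 and 40.5 units of 1000000 reads, of which the tables held 25.0% and 22.9%, so deposited RPKM values are lower than the tables' own totals would give.

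Counts and RPKM were summed over rows of a gene symbol. Log2 ratios used TMM-scaled CPM (edgeR 4.0.16) with a prior count of 2, and DESeq2 1.42.0 gave alternative size factors. The quasi-likelihood test could not be used with 1 group. The binomial test (SciPy 1.17.1) was run on simulated counts with sampling noise alone. The real libraries differed by more than that, so the simulation does not measure false calls in these data. The sorts were pools of different sex with 1 library each, so p-values measure only the difference between these libraries. GC content and shared 50-base stretches came from GENCODE M21 transcripts, available for all 38 genes. Some of these were longer than counts and RPKM implied for the deposited rows. Copies absent from that annotation were not searched. Intervals cover counting error only, since reads carried no molecular identifiers. The members, gene lists and tests were chosen with earlier results of these data known. Named were every member, the 2 highest genes of each other group and the called ones, the 2 highest of the marker lists set beside a result, and genes overlapping or sharing sequence with a member; exceptions are marked in the text. One of the listed symbols of the other pathway genes, Trsp, was not matched. Alternatives were other scalings, tests, thresholds, prior counts, single rows, a GC correction and leaving out each sort.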

Additional observations from a re-analysis of the deposited data

How the results depend on the processing

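Of the 38 members, 30 were detected, and between 31 and 32 when either sort was left out; with RPKM minimums of 0.5 and 2 the number was 35 and 21, and with a CPM of at least 1 it was 37. The median level over members, taken from the mean of the sorts, was 3.40 RPKM. It was 16.1 as a mean in place of a median, 4.54 over detected members and 2.86 with the row holding most reads in place of the sum, and 2.83 to 3.11 when either sort was left out. The 2 calls, Gpx4 and Gstp1, were also made with total counts, without Rn45s and with minimums of 1 or 50 reads. With a fold of 1.5 there were 10 calls beside 18.2% of all genes tested. With the edgeR exact test, which adds a dispersion, there were 0, with 3 members at an unadjusted p under 0.05. That dispersion already holds the difference between the sorts, so the 0 calls cannot decide whether members differ. The median log2 ratio stayed below 0 in the alternatives run, from -0.19 with deposited RPKM to -0.06 after the GC correction. Over all genes the same settings gave -0.065 and 0.0079, so part of that range is a shift of all genes. Signs of single members changed in 9 of 37 with the GC correction, in 3 with deposited RPKM and in 1 each with DESeq2 size factors and total counts, none of them called. No paired analysis was possible because there is 1 group. Members with few reads limit what can be told: for Gpx3, Gss and Txnrd2 the exact intervals of the fold spanned 1.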
